A study of Mus musculus with 6 samples.

Results

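The genes described here form the cholesterol module, that is, the enzymes that make cholesterol and the proteins that sense, control and move sterols. They were compared in the mouse embryo, at the time when the neural tube closes, between surface ectoderm (SE) and the adjoining neural ectoderm (NE). A fixed list of 27 genes was matched by symbol to the probe annotation of the array. The match itself used no measured value, but the list was chosen with earlier results of these data known. Of these, 24 had at least 1 probe, for 47 probes in all, and 23 were detected well enough to be tested among 10603 genes. Acat2, Hmgcs1 and Fdft1 had no probe in the annotation used and were not analysed here. The probe of Abca1, a sterol exporter, was not detected on any array.

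The study asked how the ectodermal sheet divides into SE, the future epidermis and placodes, and NE, the future brain, and for this it profiled both tissues dissected from wild-type CD-1 embryos at E8.5, at the forebrain level. Each tissue was hybridized to 3 arrays, and each array carried total RNA from pooled embryos. The arrays are single-colour Illumina bead arrays, on which a probe's signal measures the amount of 1 transcript region. Both groups share strain, stage, genotype, axial level and enzyme treatment, and they differ by tissue. By the paper's methods, each SE pool also held more embryos than each NE pool, a difference that cannot be told apart from tissue. Since RNA came from whole dissected tissue, fewer cells of a type and less RNA per cell cannot be told apart. The p-values measure the spread between 3 pooled samples of each tissue, and the number of arrays limits their precision.

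Cholesterol is built from acetyl-CoA through mevalonate, the isoprenoid farnesyl diphosphate, squalene and lanosterol, and lanosterol is then trimmed and reduced to cholesterol. The genes of this route are targets of the sterol regulatory element-binding proteins (SREBPs), membrane-bound transcription factors that SCAP escorts to the Golgi when sterol is low and that INSIG proteins hold back when sterol is high. In the embryo, cholesterol is a building material of new membranes and is attached to Hedgehog proteins, and inherited defects of its late steps in humans are associated with malformations of the forebrain and face.

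Marker genes followed the tissue labels, and those of other cell types were uneven. All 9 tested SE markers were higher in SE (log2 difference 2.24 to 5.71) and all 7 tested NE markers higher in NE (-5.56 to -1.01), with Rax, Lhx5 and Hesx1 not detected on any SE array. The dissection was meant to leave out cephalic mesenchyme, yet all 7 tested mesenchyme markers were higher in SE, with a summed signal of 1637 to 2347 in SE and 375 to 515 in NE. Alx1, Alx4 and Dcn were not detected on any NE array. A marker undetected in a tissue was tested only because the other tissue detected it, so its direction was fixed in advance. Of 4 blood and endothelium markers, 3 (all embryonic globins) were higher in SE, with sums of 3327 to 5949 in SE and 586 to 1632 in NE. Cell cycle genes summed to 19731 to 20586 in SE and 21804 to 22475 in NE, with 2 of 6 higher in NE. The endoderm markers were 2 higher in NE and 1 in SE of 4, with sums of 221 to 246 in SE and 428 to 605 in NE. Of all genes, 21.6% were called higher in NE and 18.7% in SE. The cell cycle share in NE (33.3%) and the endoderm share in SE (25.0%) were not far from these, on few genes. The summed marker levels differed between the tissues in which the sterol genes are compared, and their part in the results was not tested.

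Of the 23 genes tested, 15 were higher in NE and 3 were higher in SE at a Benjamini-Hochberg adjusted p under 0.05 in limma, and 5 were not called. The 15 include Idi1, which could be tested only because the NE arrays detected it. Among all genes tested, 40.3% were called, 21.6% higher in NE and 18.7% higher in SE. The median difference of the module, SE minus NE, was -0.49 on the log2 scale, against -0.02 over all genes. It was smaller, at -0.32, without background correction or with an offset of 50, and -0.29 with the deposited scaled values. The differences were of moderate size. Of the genes called higher in NE, 7 were at least 1.5-fold higher, and Msmo1 was the only one past 2-fold. No gene of the module passed a fold above 3 at an unadjusted p under 0.05 in limma, which 1.59% of all genes passed toward NE and 2.67% toward SE. The paper applied the same fold and p limits to genes higher in SE, without saying whether p was adjusted, and with other processing. The ranges of the 3 NE and 3 SE arrays did not overlap for 18 of the 23 genes, with NE above in 14 and SE above in 4, where the same held for 55.1% of all genes (30.1% with NE above and 25.0% with SE above).

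**Figure D1:**
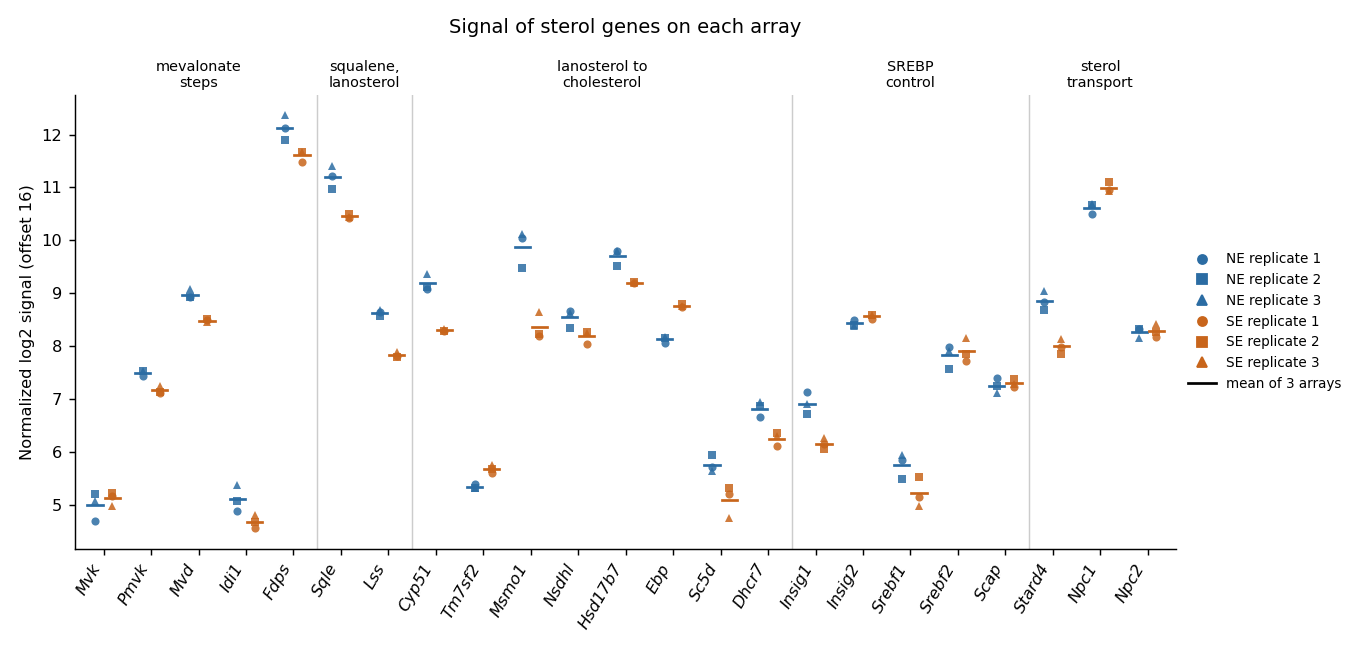
Normalized log2 signal (offset 16) of the 23 tested sterol genes on each of the 6 arrays, ordered by role. Blue marks are the 3 NE arrays and orange marks the 3 SE arrays, with 1 mark shape for each replicate number and a bar at the mean of 3 arrays. In 14 genes all blue marks lie above all orange ones, and in 4 genes all orange marks lie above the blue. Heights of different genes cannot be compared, because probes differ in brightness.

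Since most of these genes stood on the same side, the bases before the transcription starts of 5 of them are shown as RefSeq gives them for build GRCm38.p6. Msmo1 and Cyp51 had the largest differences toward NE among the synthesis enzymes, Insig1 is the control gene with the largest one, and Ebp and Tm7sf2 are the synthesis enzymes called higher in SE. Each stretch holds the 250 bases before the start, written 5′ to 3′ on the gene's strand. Capitals mark CCAAT, or ATTGG where it lies on the opposite strand, the letters bound by the factor NF-Y that works together with SREBPs at many sterol genes, and CACGTG, the E-box.
Msmo1, chr8:64733579-64733828, minus strand: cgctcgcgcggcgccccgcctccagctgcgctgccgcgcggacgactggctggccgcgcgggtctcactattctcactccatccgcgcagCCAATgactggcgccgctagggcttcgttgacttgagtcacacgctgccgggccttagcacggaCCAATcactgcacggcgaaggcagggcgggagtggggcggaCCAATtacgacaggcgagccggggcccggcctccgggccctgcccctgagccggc
Cyp51, chr5:4104698-4104947, minus strand: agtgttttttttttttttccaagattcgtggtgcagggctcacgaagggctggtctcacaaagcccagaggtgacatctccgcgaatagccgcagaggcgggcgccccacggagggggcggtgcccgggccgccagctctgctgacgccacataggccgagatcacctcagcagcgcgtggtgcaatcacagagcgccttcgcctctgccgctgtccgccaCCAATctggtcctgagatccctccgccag
Insig1, chr5:28071162-28071411, plus strand: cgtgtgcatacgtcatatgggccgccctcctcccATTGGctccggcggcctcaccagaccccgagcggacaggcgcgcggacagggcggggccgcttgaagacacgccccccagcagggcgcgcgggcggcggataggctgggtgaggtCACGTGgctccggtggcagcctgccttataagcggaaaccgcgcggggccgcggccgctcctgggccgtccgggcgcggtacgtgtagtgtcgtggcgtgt
Ebp, chrX:8193513-8193762, minus strand: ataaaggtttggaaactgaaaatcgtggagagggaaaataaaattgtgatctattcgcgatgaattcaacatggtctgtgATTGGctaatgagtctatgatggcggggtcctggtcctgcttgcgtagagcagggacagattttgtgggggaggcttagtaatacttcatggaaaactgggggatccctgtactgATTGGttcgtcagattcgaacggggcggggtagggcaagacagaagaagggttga
Tm7sf2, chr19:6067851-6068100, minus strand: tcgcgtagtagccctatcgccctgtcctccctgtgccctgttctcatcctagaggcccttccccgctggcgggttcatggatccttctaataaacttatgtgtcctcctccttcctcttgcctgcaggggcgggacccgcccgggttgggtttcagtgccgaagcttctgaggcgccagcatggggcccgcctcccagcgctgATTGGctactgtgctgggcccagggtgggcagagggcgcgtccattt
The Msmo1 stretch holds CCAAT at 3 places, which begin at -160, -96 and -55 from the start. Ebp has it at -170 and -55, Tm7sf2 at -47, Cyp51 at -29 and Insig1 at -216. Insig1 also has an E-box, which begins at -101.

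A search of 300-base windows, from 250 bases before to 50 after the start, covered 19 of the tested genes. CCAAT on either strand was found in 18 of 19 (94.7%), against 43.8% of 8566 tested genes with a window and 37.4% of all 32851 windows. It was present in all 12 genes called higher in NE that had a window and also in both called higher in SE, so the letters did not separate the directions. Among genes with a single window, it was found in 14 of 14, against 40.1%. The E-box CACGTG was found in 5 of 19 (26.3%), against 11.8% of tested genes and 7.15% of all windows. Among genes with a single window, the E-box was found in 3 of 14 (21.4%), against 10.3%. A gene with several windows counted if any of them matched, so shares of genes and of windows are unlike measures. GGGCGG, the GC box, was found in 18 of 19, against 69.5% of tested genes and 35.7% of all windows. TCACNCCAC, a common form of the sterol regulatory element, was found in 0 of the 19 genes, against 1.33% of tested genes and 1.24% of all windows. With the genes of the list that were not tested included, it was found in 1 of 30 windows (3.33%), that of Hmgcs1. All 4 motifs were searched on both strands, and no motif contains another. A match is a description of the letters and no site of binding, and the absence of a match says only that these letters are not in this window.

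The mevalonate steps turn acetyl-CoA into farnesyl diphosphate. Of the 5 genes tested, 4 (80.0%), Idi1 included, were higher in NE and none in SE, against 21.6% and 18.7% of all genes. Fdps, which makes farnesyl diphosphate, had log2 signals of 12.13, 11.89 and 12.37 on the NE arrays and 11.49, 11.68 and 11.67 on the SE arrays. Every NE array lay above every SE array, although NE 2 came close. Fdps was 1.43-fold higher in NE (log2 difference -0.52, standard error 0.13, limma adjusted p = 0.0150). Mvd, the decarboxylase that makes isopentenyl diphosphate, read 8.92, 8.93 and 9.08 in NE and between 8.45 and 8.51 in SE. The groups of Mvd were well apart, with NE 1.41-fold higher (-0.49, standard error 0.08, limma adjusted p = 0.0021). Pmvk, the kinase just before it, was 1.26-fold higher in NE (limma adjusted p = 0.0128).

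Idi1, the isomerase that supplies dimethylallyl diphosphate, was near the limit of detection. It read 4.89, 5.08 and 5.38 in NE and 4.57, 4.69 and 4.81 in SE, where it was not detected on any array. The fold of Idi1 is therefore only a bound, set against the lowest signal of a detected probe on each SE array. By this bound Idi1 was at least 1.22-fold higher in NE (limma adjusted p = 0.0364). Idi1 met the detection filter only through the NE arrays, so the filter fixed its direction and its p-value lends it no support. Mvk, mevalonate kinase, was detected on 2 of 3 NE arrays and all SE arrays, and its groups overlapped, with log2 signals of 4.69 to 5.21 in NE and 4.99 to 5.23 in SE (limma adjusted p = 0.496). Its 95% interval ran from -0.19 to 0.46. The calls of Idi1 and Fdps depended on single arrays. With any NE array left out, Idi1 did not meet the detection filter and was not tested. Without SE 1 the adjusted p was 0.0523 for Fdps and 0.107 for Idi1, and for Idi1 it was 0.0884 without SE 2 and 0.0534 without SE 3.

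Both measured steps from farnesyl diphosphate by way of squalene to lanosterol were higher in NE, as were 21.6% of all genes. Sqle, squalene epoxidase, one of the rate-limiting enzymes of the route, read 11.22, 10.97 and 11.41 in NE and 10.42, 10.51 and 10.44 in SE. The SE arrays lay within a narrow band below all NE arrays, and NE was 1.68-fold higher (-0.75, standard error 0.12, limma adjusted p = 0.0020). Lss, lanosterol synthase, which closes the sterol rings, read 8.64, 8.58 and 8.69 in NE and 7.83, 7.80 and 7.88 in SE. Here the spread within each tissue was small beside the gap, and NE was 1.74-fold higher (-0.80, standard error 0.07, limma adjusted p = 1.2e-04).

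From lanosterol to cholesterol all 8 enzymes of the list were tested. Of these, 6 (75.0%) were higher in NE and 2 (25.0%) in SE, against 21.6% and 18.7% of all genes. The largest difference of the module was that of Msmo1, the methylsterol monooxygenase that starts the removal of the methyl groups at carbon 4. It read 10.05, 9.48 and 10.12 in NE and 8.20, 8.23 and 8.64 in SE, that is, NE 2 was lowest among NE arrays and SE 3 highest among SE arrays, with a wide gap between the tissues. Msmo1 was 2.88-fold higher in NE (-1.52, standard error 0.19, limma adjusted p = 6.4e-04). It was also the only gene of the module at least 2-fold apart in all 3 comparisons of arrays with the same replicate number, as were 2.66% of all genes toward NE and 4.22% toward SE. Cyp51, the lanosterol demethylase that acts before it, read 9.08, 9.11 and 9.36 in NE and 8.29, 8.29 and 8.33 in SE. All SE arrays of Cyp51 were alike and lower, with NE 1.85-fold higher (-0.89, standard error 0.09, limma adjusted p = 2.5e-04).

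Nsdhl and Hsd17b7 act after Msmo1 in the same demethylation cycle. Hsd17b7, the ketosteroid reductase, was 1.42-fold higher in NE, with 9.51 to 9.81 in NE and 9.19 to 9.21 in SE (limma adjusted p = 0.0053). Nsdhl, the decarboxylating dehydrogenase, read 8.67, 8.34 and 8.63 in NE and 8.05, 8.27 and 8.26 in SE. NE 2 lay close to the SE arrays, and the call was narrow (1.28-fold higher in NE, -0.35, standard error 0.11, limma adjusted p = 0.0426). It was lost when NE 1, NE 3, SE 1, SE 2 or SE 3 was left out (adjusted p = 0.123, 0.113, 0.126, 0.0669 and 0.0770) and with the replicate number as a block (adjusted p = 0.0757). The 4 tested probes of Nsdhl were nevertheless all called higher in NE, with differences from -0.79 to -0.35.

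The last steps measured were also higher in NE. Dhcr7, 7-dehydrocholesterol reductase, the enzyme lacking in the human Smith-Lemli-Opitz syndrome, read 6.66, 6.87 and 6.95 in NE and 6.11, 6.35 and 6.30 in SE. The tissues did not overlap, and NE was 1.48-fold higher (-0.57, standard error 0.11, limma adjusted p = 0.0046). Sc5d, the desaturase that forms its substrate, was 1.59-fold higher in NE, with 5.64 to 5.94 in NE and 4.76 to 5.32 in SE, where it was detected on 2 of 3 arrays (limma adjusted p = 0.0117).

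Ebp and Tm7sf2 went the other way. Ebp, the sterol isomerase between the demethylation cycle and Sc5d, read 8.07, 8.15 and 8.17 in NE and 8.73, 8.81 and 8.75 in SE. Each tissue was tight, and Ebp was 1.55-fold higher in SE (0.64, standard error 0.07, limma adjusted p = 3.7e-04). Tm7sf2, a sterol reductase that acts after Cyp51, read 5.40, 5.31 and 5.33 in NE and 5.61, 5.68 and 5.77 in SE. Its SE arrays were all higher, by 1.26-fold on average (0.34, standard error 0.08, limma adjusted p = 0.0111), though on low signals. Lbr, the lamin B receptor, which carries out the same reduction as Tm7sf2, was not called (0.03, limma adjusted p = 0.765). Over the whole route, 12 of the 15 enzymes tested, Idi1 included, were higher in NE (80.0%) and 2 in SE (13.3%), with a median of -0.50. The shares over all genes were 21.6% and 18.7%.

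**Figure D2:**
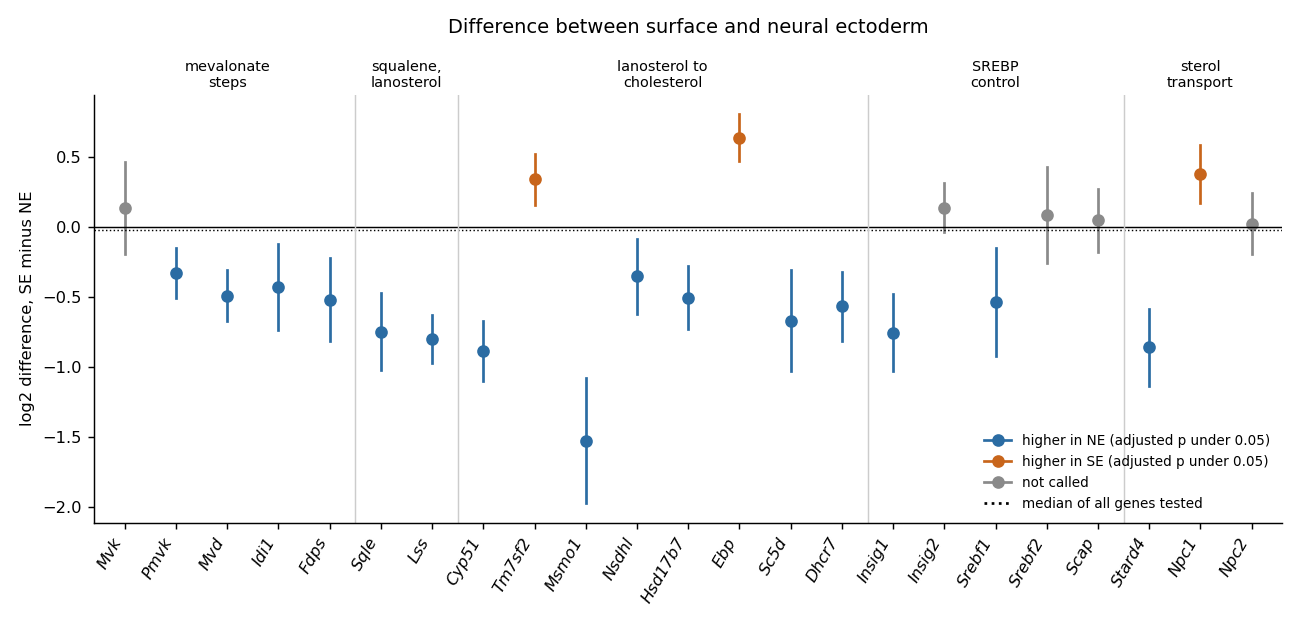
Difference in normalized log2 signal between the tissues, SE minus NE, for the 23 tested sterol genes, with 95% intervals from limma. Blue genes were called higher in NE, orange genes higher in SE and grey genes not called, and the dotted line marks the median of all 10603 genes. Msmo1 lies lowest at -1.52 and Ebp highest at 0.64.

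The control genes were divided. Insig1, the more strongly sterol-responsive of the INSIG pair, read 7.13, 6.72 and 6.90 in NE and 6.16, 6.06 and 6.27 in SE. Its tissues were well separated, with NE 1.69-fold higher (-0.75, standard error 0.12, limma adjusted p = 0.0020). Insig2 read 8.51, 8.40 and 8.39 in NE and 8.52, 8.59 and 8.59 in SE. The SE arrays lay above the NE arrays by a small margin, and the difference was not called (0.14, 95% interval -0.04 to 0.31, limma adjusted p = 0.191).

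Srebf1, which encodes the SREBP that mainly serves fatty acid synthesis, read 5.84, 5.50 and 5.94 in NE and 5.15, 5.54 and 4.99 in SE. It was called higher in NE by 1.45-fold (-0.54, standard error 0.17, limma adjusted p = 0.0381), but SE 2 lay above NE 2, and it was the only called gene whose groups overlapped. The call was lost without NE 1, NE 3, SE 1 or SE 3 (adjusted p = 0.101, 0.112, 0.100 and 0.122) and with the replicate number as a block (adjusted p = 0.0750). Srebf2, whose SREBP mainly serves cholesterol synthesis, ranged from 7.58 to 7.99 in NE and from 7.72 to 8.16 in SE, and Scap from 7.12 to 7.40 in NE and from 7.24 to 7.39 in SE. Neither was called (limma adjusted p = 0.686 and 0.740). Their intervals, -0.26 to 0.43 for Srebf2 and -0.18 to 0.27 for Scap, hold differences in either direction. The array measures transcripts only, and SREBPs are controlled by cleavage of the protein.

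Among the transport genes, Stard4, a soluble carrier of cholesterol between membranes and an SREBP target, read 8.84, 8.69 and 9.05 in NE and 7.99, 7.86 and 8.15 in SE. All NE arrays were above all SE arrays, with a 1.81-fold difference (-0.86, standard error 0.12, limma adjusted p = 1.0e-03). Npc1, which moves cholesterol out of late endosomes and lysosomes, read 10.51, 10.68 and 10.68 in NE and 10.96, 11.10 and 10.93 in SE. It was 1.30-fold higher in SE without overlap (0.37, standard error 0.09, limma adjusted p = 0.0129). Npc2, its soluble partner in the lysosome, was not called, at 8.15 to 8.33 in NE and 8.18 to 8.42 in SE (0.02, 95% interval -0.20 to 0.24, limma adjusted p = 0.884). Abca1, at 4.30 to 4.35 in NE and 4.42 to 4.51 in SE, was within the background on all 6 arrays and was not tested.

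The values above are those of the brightest tested probe of each gene. Over all 35 tested probes, 24 were called higher in NE, 4 higher in SE and 7 neither, where 37.3% of all probes tested were called, 20.2% in NE and 17.1% in SE. Several tested probes, 20 in all, were available for 8 genes. For Sqle and Insig1 every tested probe was called higher in NE, with -0.75 and -0.72 for Sqle and -1.11 to -0.71 for Insig1. The other probe of Fdps gave a larger difference than the brightest, 2.03-fold higher in NE (-1.02). For Srebf2 and Scap the probes disagreed, since the dimmer probe was called higher in NE in both, at -0.44 for Srebf2 (limma adjusted p = 0.0315) and -0.56 for Scap (limma adjusted p = 0.0121). Of the 3 tested probes of Npc1, 2 were called higher in SE, and the third was not called at -0.18. Whether such probes read different transcript forms was not tested.

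**Figure D3:**
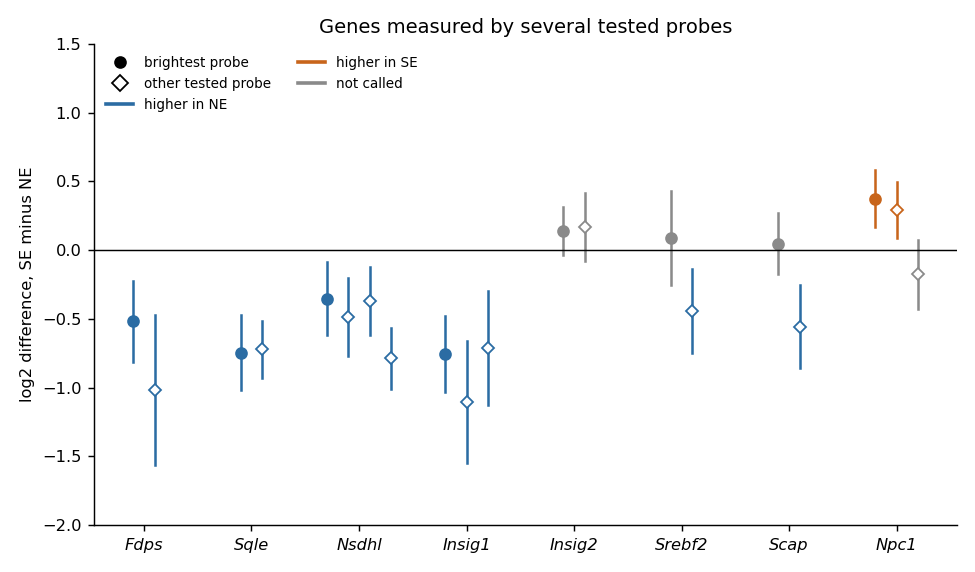
Difference in normalized log2 signal, SE minus NE, for each tested probe of the 8 sterol genes that had several, with 95% intervals from limma. Filled circles are the brightest probe of the gene and open diamonds the other probes, coloured by call. All probes of Fdps, Sqle, Nsdhl and Insig1 were called higher in NE, while those of Srebf2, Scap and Npc1 differ in call.

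The arrays of a tissue were not alike in this module. Among the 15 genes called higher in NE, NE 3 was the highest of the NE arrays in 10 and NE 2 the lowest in 9. Over all genes, NE 3 was highest in 32.3% and NE 2 lowest in 30.4%. On the SE side, SE 1 was the lowest SE array in 15 of all 23 genes and the highest in 0, against 31.4% and 33.7% of all genes. With the replicate numbers of the labels, 14 genes were lower in SE in all 3 comparisons, 4 were higher in all 3 and 5 were mixed. The same shares over all genes were not counted. They are at least 30.1% lower and 25.0% higher in SE, the genes whose ranges did not overlap. The replicate numbers mark no shared litter or dissection in the labels, although the paper compared the tissues within each replicate. These counts carry no test.

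**Figure D4:**
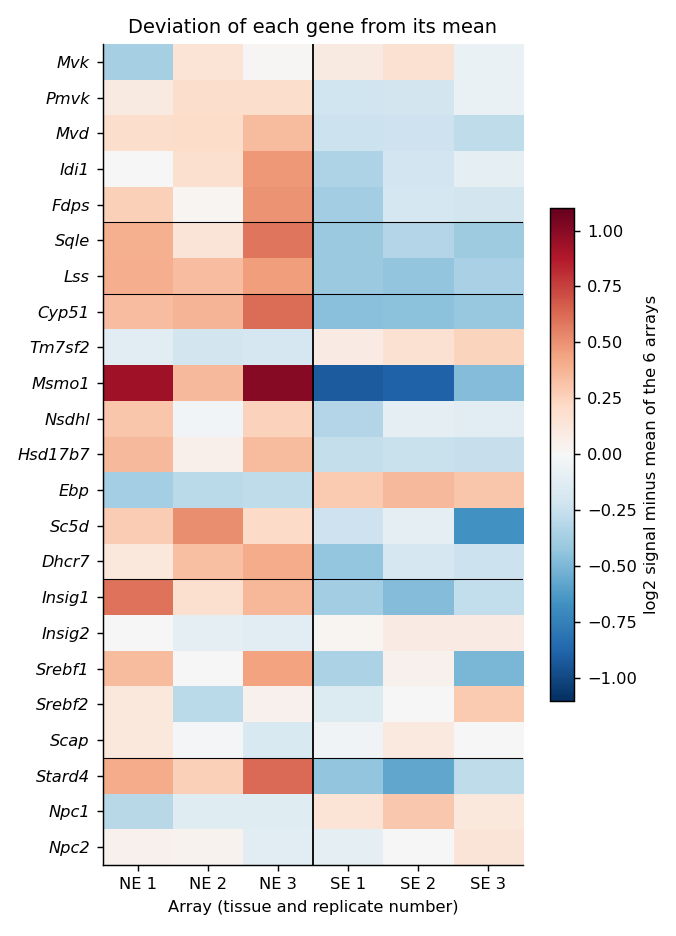
Deviation of each sterol gene's log2 signal from its mean over the 6 arrays, in log2 units, with genes in rows by role and arrays in columns. Red is above and blue below the gene's mean. The NE columns are red and the SE columns blue for most genes, with Ebp, Tm7sf2 and Npc1 the reverse, and NE 2 is paler than NE 3 in Msmo1, Sqle and Fdps.

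In addition, 8 lists of genes around the pathway were read in the same fit. The largest share toward NE was in lipoprotein uptake, where 3 of 4 tested genes (75.0%) were higher in NE and none in SE. Of all genes, 21.6% were higher in NE and 18.7% in SE. Lrp2 (megalin), an endocytic receptor of the forebrain neuroepithelium, read 10.79, 10.79 and 11.07 in NE and 9.23, 9.65 and 9.29 in SE, a 2.82-fold difference (limma adjusted p = 1.1e-04). Lrp8 and Vldlr, receptors for reelin and for lipoproteins, were 2.25-fold and 1.62-fold higher in NE (limma adjusted p = 2.4e-04 and 0.0024). In all 3 receptors the NE arrays lay above the SE arrays.

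The fatty acid arm of SREBP control had 6 of 13 tested genes (46.2%) higher in NE and none higher in SE, with a median of -0.39. Over all genes the shares were 21.6% in NE and 18.7% in SE. Scd1, stearoyl-CoA desaturase, read 10.51, 10.17 and 10.68 in NE and 9.10, 9.22 and 9.23 in SE, a 2.41-fold difference without overlap (limma adjusted p = 2.2e-04). Acss2, which makes acetyl-CoA from acetate, was 1.74-fold higher in NE, and the fatty acid elongase Elovl5 and desaturase Fads1 were 1.58-fold and 1.55-fold higher (limma adjusted p = 4.4e-04, 3.0e-04 and 0.0018).

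The branches that use isoprenoids for other ends held no gene called higher in NE. At an unadjusted p under 0.05 (limma), 0 were higher in NE and 4 in SE. The shares of all genes at that unadjusted p were not counted. They cannot be smaller than the 21.6% in NE and 18.7% in SE called at the adjusted p. Of 11 tested, 3 were higher in SE, namely Rabggta, a subunit of the enzyme that prenylates Rab proteins (1.47-fold), Nus1, of dolichol synthesis (1.39-fold), and Coq2, of ubiquinone synthesis (1.35-fold; limma adjusted p = 9.2e-04, 0.0049 and 0.0200). The other 8 were not called, and the median was 0.07. The share higher in SE, 27.3%, was not far from the 18.7% of all genes. Of the 4 tested genes in the list of other sterol synthesis genes, none was called by limma in either direction. At an unadjusted p under 0.05 (limma), 2 were higher in SE and 0 in NE, again with no share of all genes counted. Among the genes of SREBP processing and sterol-regulated degradation, 2 of 8 were higher in NE, the ubiquitin ligases Marchf6 (1.49-fold) and Rnf145 (1.45-fold; limma adjusted p = 0.0092 and 0.0021), and none in SE. This share of 25.0% was near the 21.6% of all genes. The other 2 tested probes of Marchf6 and the other tested probe of Rabggta were not called.

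Lists of sterol movement and breakdown were mixed. Of 15 intracellular transfer and storage genes, 2 were higher in NE and 1 in SE. Gramd1b, which moves cholesterol from the plasma membrane to the endoplasmic reticulum, was 1.97-fold higher in NE, Tmem97, a partner of NPC1, was 1.17-fold higher in NE, and Osbpl1a, an oxysterol-binding protein, was 1.61-fold higher in SE (limma adjusted p = 1.2e-04, 0.0402 and 0.0113). The other tested probe of Gramd1b and the other 3 of Osbpl1a were not called. These shares, 13.3% and 6.67%, lay below those of all genes, and the count in NE fell to 1 when any 1 of the 6 arrays was left out and rose to 4 under other settings. In SE it was 2 without NE 1 or NE 2. Of 6 genes for liver X receptors and their targets, the receptor Nr1h3, detected on 1 of 3 SE arrays, was 1.81-fold higher in NE and the exporter Abcg4, not detected in SE, at least 1.60-fold higher, whereas Apoe, an apolipoprotein, was 1.37-fold higher in SE (limma adjusted p = 0.0057, 0.0018 and 0.0086). Abcg4 met the detection filter only through the NE arrays, which fixed its direction. The shares of this small list, 33.3% in NE and 16.7% in SE, compare with 21.6% and 18.7% of all genes. Without NE 1, NE 2 or NE 3, 1 gene of this list was called higher in NE. With only probes detected on all 6 arrays, 0 were.

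The largest difference in any of these lists was toward SE. Sult2b1, the sulfotransferase that makes cholesterol sulfate, a lipid of the epidermis, read 5.10, 4.97 and 5.00 in NE and 7.90, 7.65 and 7.77 in SE. It was 6.73-fold higher in SE (limma adjusted p = 6.9e-07), and its other 2 tested probes were called in the same direction. In the same list of 5 oxysterol and bile acid enzymes, the sterol hydroxylase Cyp7b1 was 2.20-fold higher in NE (limma adjusted p = 3.3e-04) and Cyp27a1 1.23-fold higher in SE (limma adjusted p = 0.0448). In this small list, 2 of 5 were thus higher in SE, against 18.7% of all genes. The 1 of 5 higher in NE was near the 21.6% of all genes. The count of this list in SE fell from 2 to 1 without NE 2, NE 3, SE 1 or SE 3 and was 3 without SE 2.

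**Figure D5:**
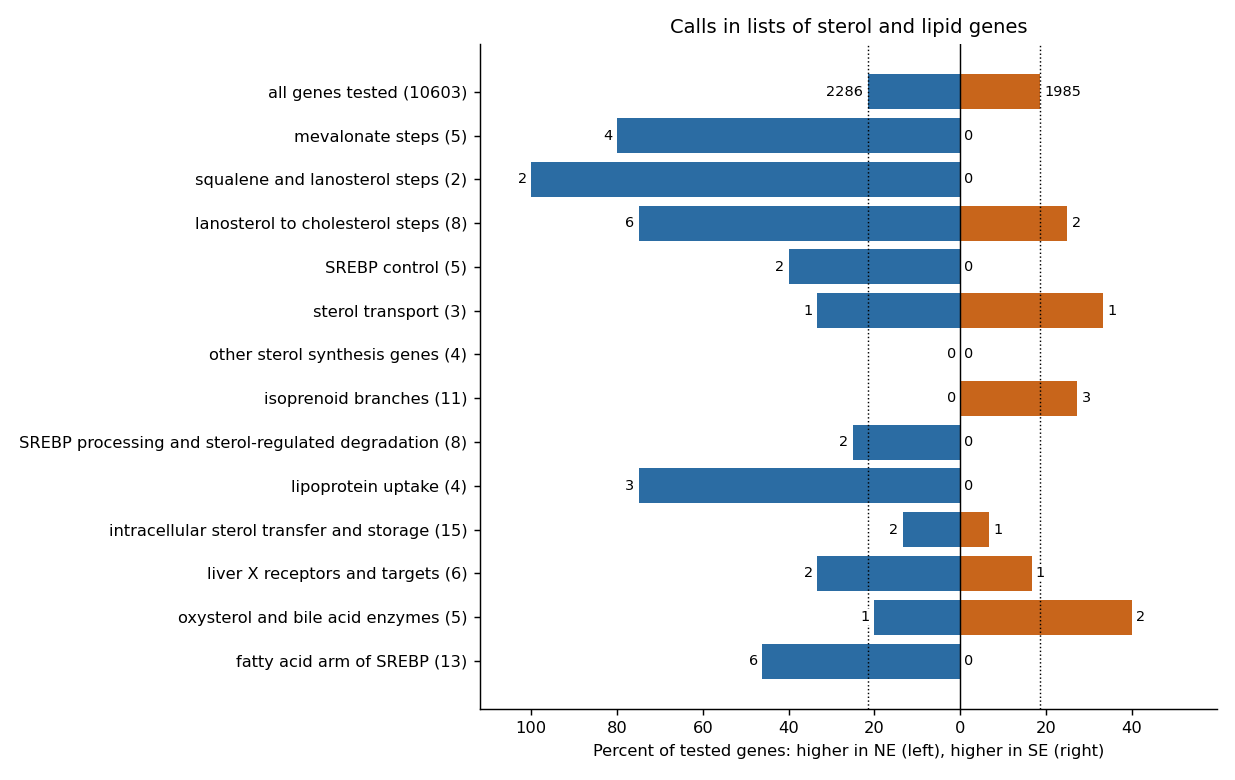
Percent of tested genes called higher in NE (blue, to the left) and higher in SE (orange, to the right) at a limma adjusted p under 0.05, for all genes, the 5 groups of the sterol module and 8 further lists. Numbers beside the bars count the genes called, numbers in parentheses the genes tested, and dotted lines mark the shares over all genes. The squalene, mevalonate, lanosterol and lipoprotein uptake bars reach farthest to the left, each with few genes.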

How the data were processed

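Total RNA of SE and NE was biotin-labelled and hybridized to Illumina MouseWG-6 v2 bead arrays, 3 per tissue. The authors deposited the probe signal intensity without normalization, processed in BeadStudio per the labels, with a detection p-value for each probe and array, also deposited. A second deposited table of signal intensity, scaled by the authors, equals the first times 1 constant per array (0.966 to 1.07), to within 9.56e-05 percent, and served as an alternative. Genome builds and scanner settings are not given in the sources used here.

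Signals were background-corrected, quantile-normalized and put on the log2 scale with neqc (offset 16) in limma 3.58.1 (R 4.3.3). The offset lowers fold changes of dim probes. Probes with detection p under 0.05 on at least 3 of 6 arrays were kept, 19590 of 45281, and fitted with lmFit and eBayes, SE minus NE, with Benjamini-Hochberg adjustment over all of them. Each gene is read by its kept probe of highest mean. Probe symbols came from the platform annotation, updated through Entrez identifiers to RefSeq (34807 matched). Of all probes, 34885 had 1 symbol, 18 several and 10378 none, and none of the last 2 kinds was named. Detected probes numbered 19174 to 19402 in NE and 18916 to 19068 in SE, and arrays correlated at 0.994 to 0.995 within a tissue and 0.955 to 0.962 between tissues.

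The genes named are all members of the module, up to 4 genes per further list with the largest called difference, and Lbr, chosen after its value was seen. The members, the 8 pathway lists and the 6 marker lists were chosen with earlier results of these data known. Alternatives covered background, offset, filter, normalization, starting values, replicate block, variance, probe choice, threshold and leaving out each array. Plots were made in Python 3.11.15 (matplotlib 3.10.9).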

Additional observations from a re-analysis of the deposited data

How the results depend on the processing

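Of 23 genes, 11 of the 18 called (Pmvk, Mvd, Sqle, Lss, Cyp51, Msmo1, Hsd17b7, Ebp, Dhcr7, Insig1 and Stard4) kept direction and call under all 16 alternatives to the fit. Idi1 kept the call in 5 and lost it in 7 of the 12 alternatives in which it was tested. With any NE array left out, or only probes detected on all arrays kept, Idi1 failed the detection filter and was not tested. Nsdhl and Srebf1 lost the call in 8 each, Fdps and Npc1 in 2, and Tm7sf2 in 1. Sc5d lost it in 1 of the 15 in which it was tested. Leaving out 1 array gave 11 to 14 genes higher in NE (15 with all arrays) and 3 higher in SE, 9 to 11 enzymes higher in NE and 2 in SE, and 14 to 16 and 5 to 8 genes of the pathway lists. Alternatives for enzymes and pathway lists were added after seeing the data.

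With a fold above 3 and unadjusted p under 0.05, 0 genes of the module and 0 enzymes were called in either direction, and 1 pathway gene in SE and 0 in NE, fewer since the fold is stricter. Trend and robust variances left 1 enzyme higher in SE and called 12 pathway genes there (7 in the reported fit), and ordinary variances 4, the cause not being tested. The other alternatives with all arrays, the stricter fold aside, gave 6 to 10. Pairing SE 1, 2 and 3 with NE 1, 3 and 2, or NE 3, 1 and 2, left 0 genes 2-fold higher in NE throughout, in place of Msmo1. The calls counted in single pathway lists stayed within 1.5 times in 223 comparisons and moved further in 49, of which 14 were the transfer and storage list in NE, 7 that list in SE, and 8 the oxysterol list in SE.

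Reversals touched uncalled genes. Mvk reached -0.016 without NE 1, and leaving out 1 array gave -0.016 to 0.24. Srebf2 was -0.18 by the mean of its probes, -0.041 without NE 2 and -0.036 without SE 3 (range over single arrays left out -0.041 to 0.18). Scap was -0.024 with median centring, -0.26 by the mean of its probes (limma adjusted p = 0.0206) and -0.025 without NE 3 (range -0.025 to 0.12). Npc2 was -0.082 with median centring, -0.014 with deposited scaled values, -0.035 without NE 3 and -0.044 without SE 3 (range -0.044 to 0.077). Median centring moved the share of all calls that were higher in SE from 46.5% to 35.6%.

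The paper's methods compared SE with NE within each replicate. Same-numbered SE and NE arrays did not deviate together (r = -0.04, -0.03 and -0.02), and the reported fit does not take the numbers as pairs. With so few arrays, these correlations cannot show whether the tissues of a replicate were collected together. With the replicate block, 13 genes were higher in NE and 3 in SE, with Nsdhl and Srebf1 lost. Enzymes were 11 and 2, and pathway genes 16 and 7. Idi1, Mvk, Tm7sf2, Sc5d and Srebf1 lie close to background, which limits their folds.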
